A study of Homo sapiens with 2 samples.

Results

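The genes described are 8 regulators of caspase activity: the inhibitor of apoptosis (IAP) genes XIAP, BIRC2, BIRC3 and BIRC6, and the caspase genes CASP2, CASP6, CASP8 and CASP9. They were chosen by name, with earlier results of these data known. Every probe set of the array whose platform annotation gives exactly 1 gene symbol, that of a member, was taken. This gave 25 of 54675 probe sets, for 7 of the 8 genes: 10 for the inhibitors and 15 for the caspases. The annotation used here names no probe set as BIRC3, alone or with other genes, so BIRC3 was not analysed here.

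The cells were CL1-5, a human lung adenocarcinoma line that the submitters describe as highly invasive. One culture received analogue 3 at 0.11 µM for 24 h. Analogue 3 is an analogue of the natural product desmosdumotin C whose label names iodo, propyl and methoxy groups. The dose equals the ED50 that the submitters give for these cells. The other culture received DMSO, the solvent, for 24 h, at a labelled concentration of 0.05 µg/mL. Total RNA of each culture was hybridised to 1 Affymetrix U133 Plus 2.0 array. With 1 array per group no difference has a replicate check, no p-value is given, and every comparison below is between these 2 arrays.

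Caspases are cysteine proteases made as inactive precursors. Initiators are activated on protein platforms, CASP8 at death receptors and CASP9 on the APAF1 apoptosome, and they cleave executioner caspases that dismantle the cell. IAP proteins are defined by the BIR zinc-binding fold. The XIAP protein binds and blocks CASP9 and executioner caspases directly. The BIRC2 and BIRC3 proteins act mainly as ubiquitin ligases in tumour necrosis factor receptor signalling, and BIRC6 is a very large ubiquitin-conjugating enzyme. Tumour cells often depend on this balance to survive stress.

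The deposited intensities have a median of 1 on each array, so each value below is a multiple of the array median. Values under 8 times the median (log2 3) were raised to that floor before a difference was taken, always as analogue 3 minus DMSO on the log2 scale. A gene counted as measured when its brightest probe set reached the floor on at least 1 array. Of 19775 named genes, 8523 were measured, and 77.5% of these differed by less than 1.5-fold. The brightness of different probe sets cannot be compared, so no order of level between genes is given. The SD of the difference of 1 probe set, estimated from 2874 genes for which 2 probe sets reached the floor on each array, was 0.23 on the log2 scale. This spread covers probe-set error only and leaves out culture and hybridisation error. In bulk RNA, fewer cells that carry a transcript and less transcript per cell cannot be told apart.

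Cell markers were in part as labelled. Of the keratin genes, KRT8 was 77.77 with analogue 3 and 42.34 with DMSO, 1.84-fold higher, and KRT18 was 457.9 and 460.8. Each of these 2 genes has 1 probe set, of the x_at kind that can share sequence with other transcripts. The part of KRT8 in the other results was not tested. The mesenchymal filament gene VIM was at 1868 with analogue 3 and 1883 with DMSO. The other mesenchymal markers listed, CDH2 (6.20 and 5.98) and FN1 (4.17 and 4.89), lay under the floor on both arrays. The epithelial adhesion genes EPCAM (0.34 and 0.35) and CDH1 (0.54 and 0.41) lay under the floor on both arrays, as did KRT19 and all 4 lung lineage markers. None of 4 leukocyte or 3 fibroblast markers was measured, and 1 of 3 endothelial markers was, PECAM1, at 15.7 and 11.4.

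XIAP was the member that differed most, at about 2-fold lower with analogue 3. CASP2 was 1.58-fold higher and CASP6 1.35-fold higher. BIRC2, BIRC6, CASP8 and CASP9 each differed by less than 0.23, the SD of 1 probe set. Of the 7 measured members, 1 (XIAP) was at least 2-fold lower, against 3.92% of all measured genes, and 0 were at least 2-fold higher, against 3.74%. At 1.5-fold, XIAP was again the 1 lower (12.9% of all genes) and CASP2 the 1 higher (9.62%). One in 7 is a count too small to set apart from those shares.

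**Figure D1:**
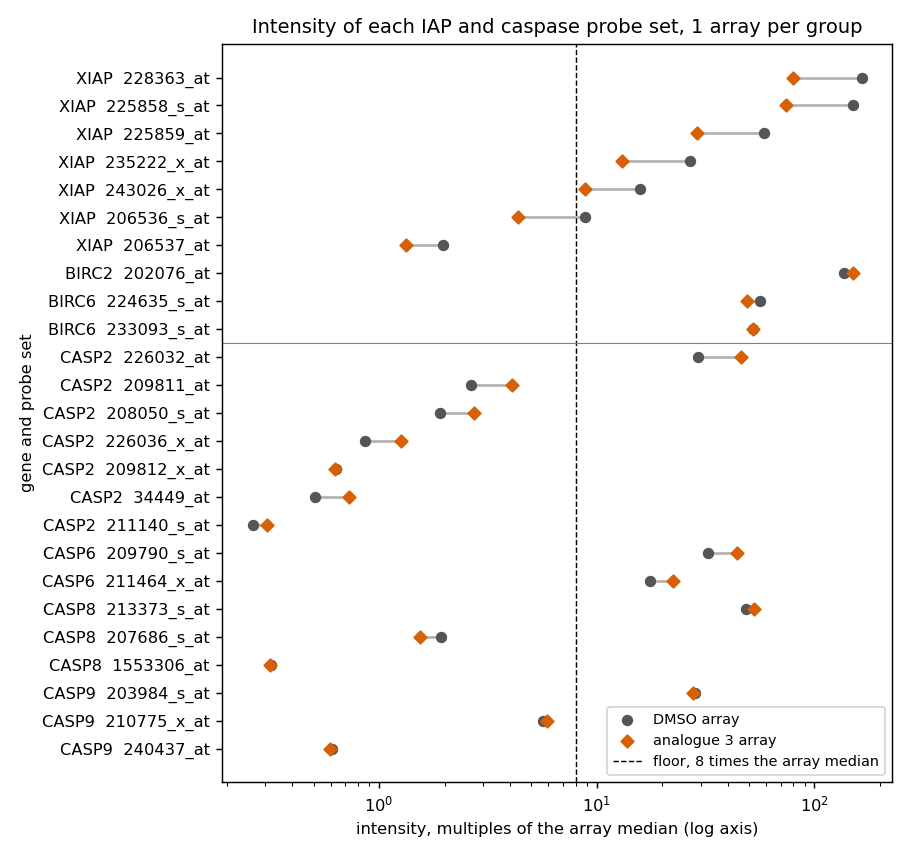
Intensity of all 25 probe sets, in multiples of the array median on a log axis, with a grey circle for the DMSO array and an orange diamond for the analogue 3 array. Every XIAP diamond lies left of its circle, from 79.87 against 165.3 at the top to 1.33 against 1.96, while the brightest CASP2 and both CASP6 diamonds lie to the right.

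Bases upstream of the members that differed most each way are shown so that the 2 gene starts can be compared. They are the 250 bases before the RefSeq start (GRCh38.p14), 5′ to 3′ on the plus strand, for XIAP at chrX:123859458-123859707 and for CASP2 at chr7:143288101-143288350. Capitals mark matches, on either strand, to any of the letters searched.
XIAP: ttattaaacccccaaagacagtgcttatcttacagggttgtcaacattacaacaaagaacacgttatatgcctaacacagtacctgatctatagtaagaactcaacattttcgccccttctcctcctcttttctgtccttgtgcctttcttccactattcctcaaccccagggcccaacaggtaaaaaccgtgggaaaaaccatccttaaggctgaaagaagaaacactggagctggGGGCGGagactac
CASP2: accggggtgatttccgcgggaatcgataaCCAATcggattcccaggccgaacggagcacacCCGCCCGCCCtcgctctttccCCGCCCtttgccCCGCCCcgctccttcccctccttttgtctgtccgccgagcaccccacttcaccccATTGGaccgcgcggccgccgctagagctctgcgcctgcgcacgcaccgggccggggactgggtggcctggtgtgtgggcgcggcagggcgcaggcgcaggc
The XIAP window had a GC content of 44.8%, and CASP2 had 71.2%, where the median of 27305 such windows was 57.6% and the quartiles were 46.0% and 67.6%. The GC box, GGGCGG, occurred 1 time in XIAP and 4 times in CASP2, with 2 of the 4 overlapping, and in 42.2% of all windows. The CCAAT box, CCAAT, occurred 2 times in CASP2 and 0 times in XIAP, and in 33.0% of windows. Neither window held the ATF4 composite letters TGATGNAAN (3.18% of windows) or the E2F letters TTTGGCGC, TTTCCCGC, TTTCGCGC or TTTGCCGC (2.78%). XIAP has 3 listed starts and CASP2 has 2, and the window shown is that of the start at the gene's outer end. These matches describe letters only, and the arrays do not measure binding.

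XIAP, the direct caspase inhibitor, is covered by 7 probe sets, and all 7 read lower on the analogue 3 array. The brightest, 228363_at, read 79.87 after analogue 3 and 165.3 after DMSO, 2.07-fold lower (log2 -1.05). The next, 225858_s_at, was 73.84 against 150.5, or 2.04-fold lower. The probe set 225859_at was 28.8 against 58.5, or 2.03-fold lower. The ratios of these 3 probe sets were nearly equal.

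The dimmer XIAP probe sets pointed the same way. The probe set 235222_x_at read 12.99 against 26.67, 2.05-fold lower, and 243026_x_at read 8.85 against 15.8, 1.79-fold lower. In 206536_s_at the analogue 3 array lay under the floor, at 4.35 against 8.87, so that only a bound can be given, at least 1.11-fold lower. The last, 206537_at, lay under the floor on both arrays, at 1.33 and 1.96. Over the 5 probe sets that reached the floor on each array, the differences ran from -1.05 to -0.84 with an SD of 0.09, which is below the 0.23 found across genes. The x_at probe sets can share sequence with other transcripts, and XIAP has pseudogene copies and a close relative, BIRC8, so those 2 readings are uncertain in origin. Probe sets of a gene share the RNA and the array, so they are not replicates of the treatment.

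Among all measured genes, 3.40% lay at or below the XIAP difference. Of the 2262 genes whose mean level lay within 1 log2 unit of XIAP, 63 (2.79%) were at least as far lower.

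BIRC2, the ubiquitin ligase cIAP1, has 1 probe set, which read 150.7 with analogue 3 and 136.1 with DMSO (log2 0.15). BIRC6 has 2. The brighter, 224635_s_at, was 49.16 against 56.01 (log2 -0.19), and 233093_s_at was 52.0 against 52.37 (log2 -0.01). These readings differ from each other by about as much as the larger of them differs from 0. Neither gene was past 1.5-fold, and XIAP was the only inhibitor analysed here that was. BIRC3, the neighbour and close relative of BIRC2, could not be set beside it.

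CASP2, a caspase linked to DNA damage and mitotic errors through the PIDD1 and CRADD adaptors, has 7 probe sets, of which 1 reached the floor. This was 226032_at, at 45.95 with analogue 3 and 29.14 with DMSO, or 1.58-fold higher (log2 0.66). The other 6 lay under the floor on both arrays, between 0.26 and 4.09. Of those, 5 read higher with analogue 3 and 1 lower, with unfloored differences from -0.02 to 0.64. The value of CASP2 at the floor used here thus rests on 1 probe set. Of the 3466 genes within 1 log2 unit of its level, 8.34% were at least as far higher.

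CASP6, an executioner caspase that cleaves nuclear lamins, has 2 probe sets, and both were higher with analogue 3. The first, 209790_s_at, was 44.11 against 32.6, 1.35-fold higher (log2 0.44). The other, 211464_x_at, was 22.48 against 17.63, 1.28-fold higher (log2 0.35). Of the genes near its level, 14.4% were at least as far higher, so its place is well inside the range of all genes.

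The initiators of the classical routes were close to level. CASP8, activated at death receptors, read 52.86 with analogue 3 and 48.51 with DMSO in 213373_s_at (log2 0.12), and its other 2 probe sets lay under the floor on both arrays, with unfloored differences of -0.33 and -0.01. CASP9, the apoptosome caspase that the XIAP protein blocks, read 27.7 and 28.32 in 203984_s_at (log2 -0.03). Its other 2 probe sets lay under the floor, the brighter at 5.94 and 5.67. For CASP9 the sign turned to 0.02 with quantile normalization or median centring and to 0.07 with a loess trend removed.

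**Figure D2:**
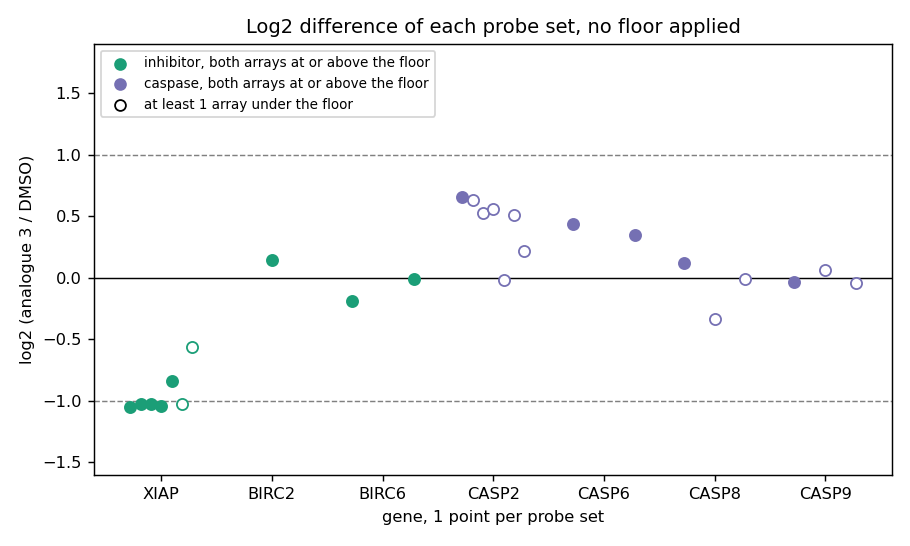
Log2 ratio of analogue 3 to DMSO for each probe set without a floor, grouped by gene, green for inhibitors and purple for caspases, with open points where at least 1 array lay under the floor. The XIAP points sit at or below -0.56 and the CASP2 points between -0.02 and 0.66, and dashed lines mark 2-fold.

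The inhibitors were then set against the caspases. The 3 measured inhibitors had a median log2 difference of -0.19, from -1.05 (XIAP) to 0.15 (BIRC2). The 4 caspases had a median of 0.28, from -0.03 (CASP9) to 0.66 (CASP2), and all measured genes one of -0.05. The inhibitor median thus lay 0.47 below the caspase median. The groups overlapped, since BIRC2 lay above CASP8 and CASP9. The gap describes the members only. Outside them, BIRC5, the 1 other listed BIR family gene measured, was at 1.45. CASP4, the 1 other listed caspase measured, was at -0.56 or lower. Both lay against the direction of the gap, and no median that includes them was computed. Without XIAP the inhibitor median was -0.02 and the gap -0.30. When probe sets ending in _s_at or _x_at were left out, 3 genes remained (XIAP, BIRC2 and CASP2) and the gap was -1.11. The gap was -0.62 at a floor of log2 5 and smallest, at -0.36, with the median over probe sets. No test of this gap is possible with 1 array per group.

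**Figure D3:**
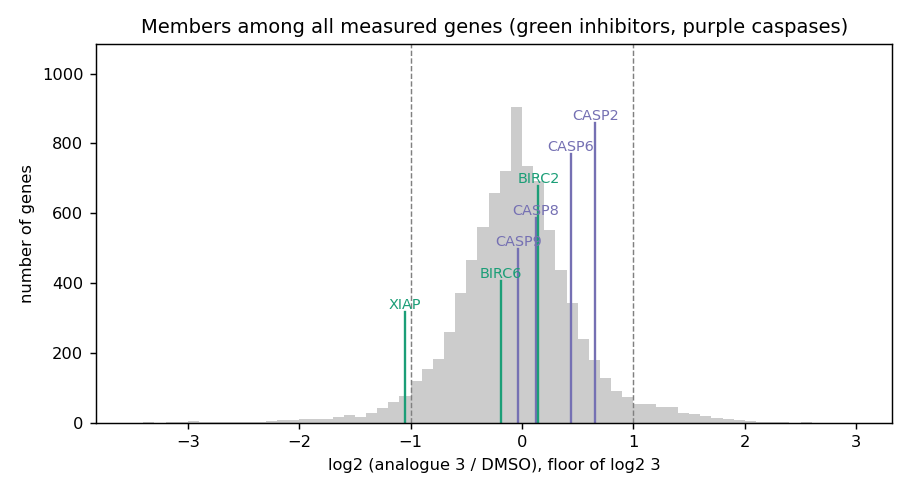
Histogram of the log2 difference of all 8523 measured genes, with the 7 measured members marked, inhibitors in green and caspases in purple (line heights only separate the names). XIAP lies past the dashed 2-fold line on the left at -1.05, and the other 6 lie between -0.19 and 0.66.

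Genes that act around these proteins were taken from a list of 36, of which 22 were measured, 11 lay under the floor on both arrays and 3 had no single-gene probe set (BIRC8, RIPK1 and TRAF2). Of the 22, 1 was at least 2-fold higher (BIRC5) and 2 were at least 2-fold lower (GSDME and XAF1), the last as a bound, beside 3.74% and 3.92% of all measured genes. The lower count was 1 with a floor of log2 5, where XAF1 was not measured, and 1 without _s_at and _x_at probe sets, the one kind GSDME has. The median was -0.09, with 11 above 0 and 11 below, close to the -0.05 of all genes. The genes named below other than BIRC5, DIABLO, XAF1 and GSDME were picked after their values were seen.

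BIRC5, or survivin, is a BIR family gene whose product works in the chromosomal passenger complex during mitosis. It was 190.6 with analogue 3 and 69.74 with DMSO, 2.73-fold higher (log2 1.45). Its probe set 210334_x_at gave 2.81-fold, and 202094_at, with the DMSO array under the floor, at least 2.00-fold. Its direction was thus opposite to that of XIAP, a member of the same BIR family. NAIP and BIRC7 lay under the floor on both arrays.

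Among antagonists and partners of IAP proteins, DIABLO, the mitochondrial protein that displaces caspases from XIAP, was nearly equal at 113.1 and 109.1 (log2 0.05). HTRA2, a second mitochondrial IAP antagonist, was likewise level in its brighter probe set, at 65.29 and 64.55. Its other probe set, 211152_s_at, was 32.23 against 26.23 (log2 0.30), a difference larger than the SD of 1 probe set. XAF1, an interferon-inducible gene whose product binds the XIAP protein, was 1.58 with analogue 3 and 24.67 with DMSO. Against the floor this is a bound of at least 3.08-fold lower, and its other 2 probe sets lay under the floor on both arrays. XIAP and XAF1 were thus both lower on the analogue 3 array, where XAF1 lay near the array median.

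The apoptosome scaffold gene APAF1 was 37.66 against 18.99, 1.98-fold higher in the 1 of its 3 probe sets that reached the floor. Under quantile normalization, median centring or loess removal, 2 of the listed genes were past 2-fold higher instead of 1. CYCS, the gene of cytochrome c that triggers this scaffold, was 631.1 against 535.5 (log2 0.24). CASP9, which the scaffold recruits, was level as given above.

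Of 8 measured receptor and adaptor genes, 6 lay below 0 and 2 above, none past 2-fold, with a median of -0.44, where 55.5% of all measured genes lay below 0. The death receptor genes TNFRSF10A and TNFRSF10B were 1.49-fold lower each in their brightest probe sets, at 91.9 against 137.2 and 345.6 against 514.0. The other TNFRSF10A probe sets were 1.42-fold and 1.37-fold lower. For TNFRSF10B, 209294_x_at was 1.27-fold and 210405_x_at 1.13-fold lower, the last by less than the SD of 1 probe set. The adaptor genes TRADD and CRADD were each 1.55-fold lower, CRADD at 8.03 against 12.5, close to the floor. FADD, the adaptor that recruits CASP8, was 59.6 against 74.2 (log2 -0.32). CFLAR, which encodes the CASP8-like regulator cFLIP, read 354.0 against 225.8 in its brightest probe set, 1.57-fold higher. Its 14 probe sets disagreed: of 6 that reached the floor, 5 were higher and 1 lower, the last at 20.3 against 32.06. Which CFLAR transcripts each detects was not tested.

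All 6 genes listed as caspase substrates were measured, with 4 above 0 and 2 below. The list counts DFFB (log2 0.27, among those above 0) as the partner of the substrate DFFA, not as a substrate itself. GSDME, a pore-forming gasdermin that caspase cleavage activates, was 24.83 with analogue 3 and 90.88 with DMSO, 3.66-fold lower (log2 -1.87) in its 1 probe set. DFFA, the inhibitor of the apoptotic nuclease encoded by DFFB, was 99.47 against 56.78, 1.75-fold higher, and 1.63- and 2.56-fold higher in its other probe sets. LMNA, a lamin gene, had a difference of 0.31 in its brightest probe set, and from 0.09 to 0.47 in the others that reached the floor on both arrays. PARP1 had a difference of 0.38. Of the other caspases, CASP4, an inflammatory caspase, was at 4.51 against 11.8, which gives at least 1.47-fold lower, and CASP1, CASP5, CASP10 and CASP14 lay under the floor on both arrays.

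**Figure D4:**
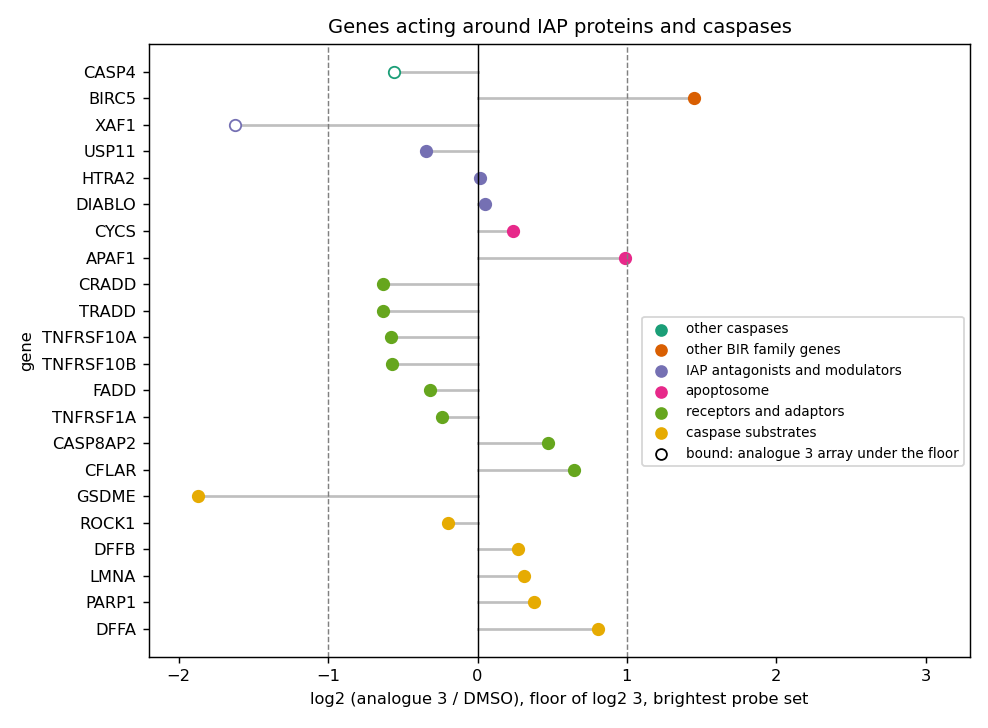
Log2 difference after the floor for the 22 measured genes that act around IAP proteins and caspases, coloured by role, with open points for bounds and dashed lines at 2-fold. BIRC5 at 1.45 is the one gene past 2-fold on the right, and GSDME at -1.87 and XAF1 at -1.62 are past it on the left.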

How the data were processed

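RNA from 2 cultures of CL1-5 cells, 1 per group, was measured on 1 array each. The authors deposited 1 intensity per probe set on a linear scale; per the submitters' processing notes they were made with GCRMA, a background correction and normalization whose version those notes do not state. The median of 1 on each array was read from the values, and the scaling step behind it is not stated in the labels. Both arrays have the same median, so a shift of all genes at once would not be visible. Precision is limited by there being 1 array per group.

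Gene names came from GEO's annotation of the platform (41097 probe sets with 1 symbol, 1801 with several, 11777 unnamed here), with symbols updated by gene number through RefSeq. Of the probe sets of a gene that carry its symbol alone, the brightest by mean log2 intensity stood for it. Earlier work on these arrays used a floor of log2 5. The floor of log2 3 was used here because log2 5 was set for another scale and was held to hide most caspase probe sets. Most of them lay under log2 3 as well, and CASP9 is the member that log2 5 leaves unmeasured. Floors of log2 5 and log2 1 and no floor were alternatives. A 2-fold difference was the threshold. Differences were computed in Python 3.11.15 with pandas 2.3.3, and loess trends (span 0.3) with statsmodels 0.14.6. The calling procedure was tested on simulated data. That simulation held no effect of 2-fold, so it does not bear on a call as close to the threshold as that of XIAP. The text names all members with every probe set, BIRC5, DIABLO, XAF1 and every listed gene past 2-fold; some genes of the list are not reported here. No gene is named for likeness of pattern, because 2 arrays give 1 difference per gene. Members and lists were chosen with earlier results of these data known. Promoter sequences are from RefSeq, and all 8 members matched by symbol.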

Additional observations from a re-analysis of the deposited data

How the results depend on the processing

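The difference of every measured member moved by less than the SD of 1 probe set (0.23) under each alternative that could be computed: floors of log2 1 and log2 5, no floor, quantile normalization, median centring, loess removal, the median over probe sets, and omission of _s_at and _x_at probe sets. XIAP ran from -1.08 to -1.0, the latter with median centring and just past 2-fold, and CASP2 from 0.52 to 0.75. CASP9 was not measured at a floor of log2 5, and BIRC6, CASP6, CASP8 and CASP9 were not measured without _s_at and _x_at probe sets. Without them the inhibitor median was -0.45, the caspase median 0.66 and the gap -1.11, because 3 genes remained. Over all alternatives the gap ran from -1.11 to -0.36, the latter with the median over probe sets. The threshold decides the counts: at 1.5-fold, 1 member was higher, and at 3-fold, 0 members were lower. The related list's median ran from -0.26 to 0.03, with alternatives chosen after seeing the data, and its sign turned at floors of log2 1 (0.03) and log2 5 (0.03). Its count of genes at least 2-fold lower ran from 1 to 3. No paired analysis was possible because each group has 1 array, and no replicate could be left out.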
